A study of Mus musculus with 2 samples.

Results

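The alpha, beta and gamma crystallins are described here as 10 genes, Cryaa, Cryab, Cryba1, Cryba2, Cryba4, Crybb1, Crybb2, Cryga, Crygf and Crygs, in eye cups taken from mice on postnatal day 13. They were taken as every probe set of the Affymetrix Mouse 430 2.0 array whose annotated symbol is 1 of these genes alone, which gave 12 probe sets of the 45101 on the array and 10 of its 18193 singly named genes. Equal amounts of RNA from 6 Mfsd2a KO animals made 1 pool, equal amounts from 6 wild-type animals made the other, and each pool was read on 1 array. The eye cup comprises the posterior eye, with retina, pigment epithelium, choroid and sclera. Per the labels, cornea, lens and optic nerve had been cut away before the tissue was frozen, and neither the strain, the sexes nor the deleted stretch of Mfsd2a is given. Mfsd2a encodes a transporter that brings lysophosphatidylcholine carrying docosahexaenoic acid into brain and eye.

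Crystallins are the soluble proteins that fill the fibre cells of the lens and give it its refractive power. The alpha crystallins belong to the small heat shock proteins and hold unfolded proteins in solution, whereas the beta and gamma crystallins share a double Greek key fold and serve mainly as stable structural proteins. Beyond the lens, Cryab is made in muscle, glia and pigment epithelium, and members of all 3 classes are known from the retina, where their levels vary with stress and injury. In pooled tissue, fewer cells of a type and less RNA per cell cannot be told apart.

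The deleted gene was read first, as a check of the labels. The probe set of Mfsd2a read 244 on the array labelled KO and 181 on the wild-type array, which runs against a knockout label, although probes that lie outside the deleted stretch cannot check it. The sample is therefore called the array labelled KO, and each direction rests on that label. A probe set counted as measured when it reached the median of its array over probe sets other than controls on at least 1 array (93.4 labelled KO, 94.2 wild type), and each gene was read by its brightest probe set. The defining markers of rods (3 of 4 with a probe set of their own, all 3 measured) and of Mueller glia (4 of 4 measured) were above this floor, and so were 3 of 4 of the pigment epithelium. A single array per genotype leaves no replicate spread, so the values carry no test and no p-value, and precision is limited by the number of arrays. The only error at hand is technical: the log2 differences of probe sets that share a gene had an SD of 0.0886, over 13738 probe sets of 5201 genes.

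Of the 10 crystallin genes 8 read higher on the array labelled KO and 2 read lower, where 55.8% of all 11568 measured genes read higher. Cryaa, Cryga and Crygf were at least 1.2-fold higher, or 3 of 10, against 1.79% of measured genes, and 0 of 10 were at least 1.2-fold lower, against 1.17%. With the other measured lens crystallins, Crybb3, Crygb and Crygd, 3 of 13 were as much higher and 0 of 13 as much lower. At 1.5-fold the count was 0 on either side, where 0.138% of measured genes were higher and 0.0864% lower. Of the 10 genes, Crybb2, at 1.17-fold, was just outside the 1.2-fold size and Cryaa, at 1.28-fold, was just inside it. Of the 13, Crybb3, at 1.19-fold, was the nearest below it. The median log2 difference of the 10 genes was 0.21, beside 0.014 over all measured genes, whose central 95% ran from -0.21 to 0.23. Without probe sets whose names end in _s_at, _x_at or _a_at, which mark probes shared by several transcripts, 7 of the genes were left, with 1 past 1.2-fold and a median of 0.056. The genes were chosen with earlier results of these arrays known, so these shares describe the arrays. Of the 12 probe sets 11 were above the floor, and the 1 below it was the dimmest set of Cryab. Taken as probe sets, 3 of 11 were at least 1.2-fold higher and 0 of 11 as much lower, where 1.85% and 1.15% of 20105 probe sets were.

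**Figure D1:**
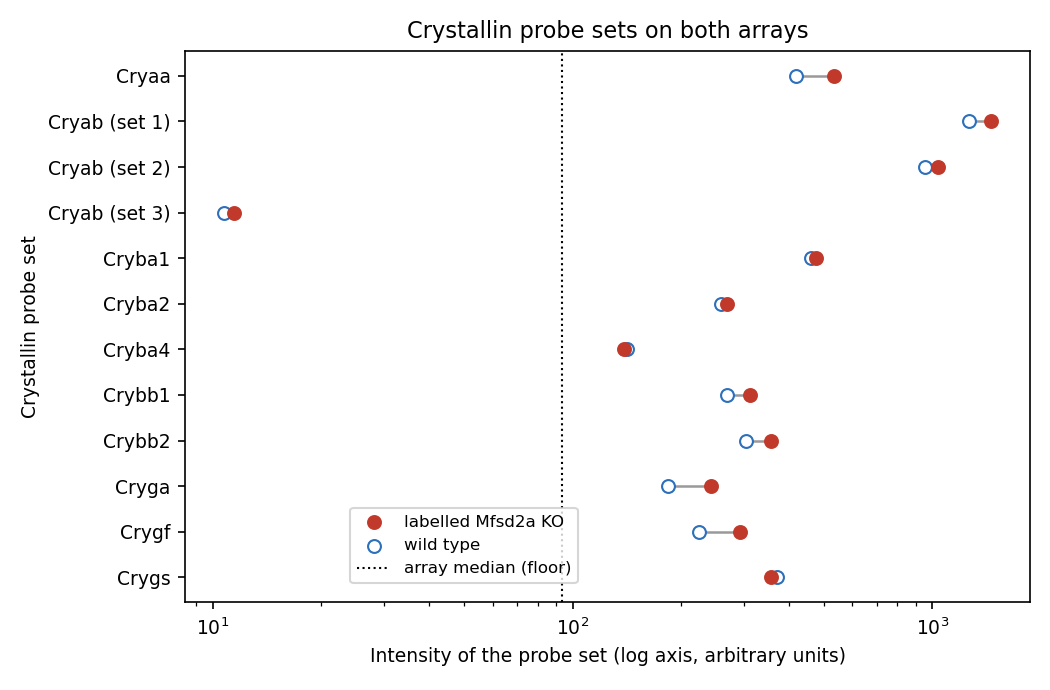
Intensity of each of the 12 crystallin probe sets on a log axis, on the array labelled KO (filled red) and on the wild-type array (open blue), with the array median used as floor (dotted). The gap between the arrays is widest for Cryga, Crygf and Cryaa, the red point lies left of the blue point for Cryba4 and Crygs, and the dimmest Cryab probe set lies below the floor.

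Among the alpha crystallins, both genes read higher on the array labelled KO. Cryaa, the lens-enriched subunit of the alpha crystallin complex, had an intensity of 533 on the array labelled KO and 418 on the wild-type array. This was 1.28-fold, or 0.35 on the log2 scale, above 99.2% of the measured genes. Cryab, the subunit that is also made in muscle and glia, is read by 3 probe sets. The brightest had an intensity of 1460 on the array labelled KO and 1265 on the wild-type array, a log2 difference of 0.21. The next had 1040 on the array labelled KO and 956 on the wild-type array, a log2 difference of 0.12. The dim set had 11.4 on the array labelled KO and 10.7 on the wild-type array, a log2 difference of 0.092. All 3 thus lay on the same side, and the 2 above the floor differed from each other by about the technical SD. The names of the Cryaa probe set and of the 2 brighter Cryab sets end in _a_at, which marks probes shared by several transcripts of the same gene.

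The beta crystallins form an acidic and a basic subclass, and the values are given by subclass. Each of the acidic genes read nearly the same on both arrays. Cryba1, which encodes the betaA3 and betaA1 proteins from the same transcript, had an intensity of 474 on the array labelled KO and 462 on the wild-type array, a log2 difference of 0.039. Cryba2 had 268 on the array labelled KO and 258 on the wild-type array, a log2 difference of 0.056. Cryba4 was slightly lower, with 139 on the array labelled KO and 142 on the wild-type array, a log2 difference of -0.026. All 3 are smaller in size than the technical SD.

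The basic genes read higher. Crybb1, a basic beta crystallin of the lens fibres, had an intensity of 311 on the array labelled KO and 268 on the wild-type array, a log2 difference of 0.21, above 96.8% of the measured genes. Crybb2, a major basic beta crystallin of the adult lens that is also known from retinal neurons, had 357 on the array labelled KO and 304 on the wild-type array, a log2 difference of 0.23, above 97.5% of them. Crybb3, a further basic gene outside the 10, had 324 on the array labelled KO and 272 on the wild-type array, a log2 difference of 0.26. The 3 basic genes thus ran from 0.21 to 0.26 and the 3 acidic genes from -0.026 to 0.056. Of the basic genes 1, Crybb3, lay outside the central 95% of all measured genes, and of the acidic genes 0 did. The grouping by subclass was noticed in the values, and no test of it was possible with 1 array per genotype. Crybb1 and Cryba4, which are next to each other on chromosome 5 and are transcribed from opposite strands, differed by 0.21 and -0.026. Crybb2 and Crybb3, also neighbours on chromosome 5, differed by 0.23 and 0.26.

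**Figure D2:**
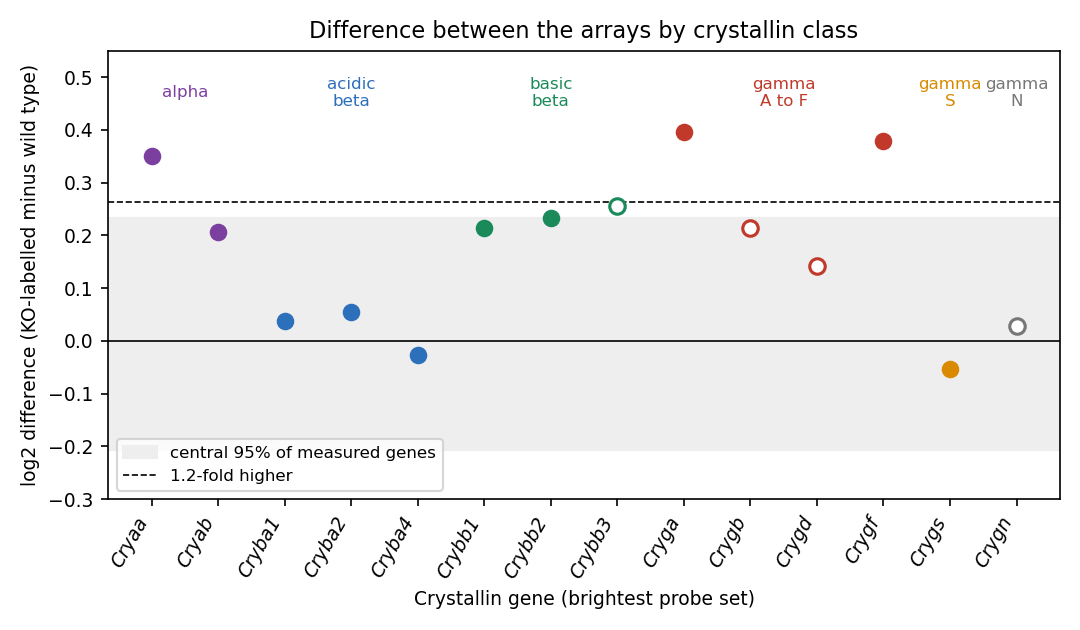
Log2 difference (array labelled KO minus wild-type array) of the brightest probe set of each lens crystallin gene, ordered by class, with the 10 genes as filled points and further crystallins as open points. The grey band is the central 95% of measured genes (-0.21 to 0.23) and the dashed line is 1.2-fold higher; Cryaa, Cryga and Crygf lie above the line, and the acidic beta crystallins, Crygs and Crygn, which was below the floor on both arrays, lie near 0.

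The gamma crystallins held the largest differences of the 10. Cryga, a gamma crystallin of the lens fibre core, had an intensity of 242 on the array labelled KO and 184 on the wild-type array. This was 1.32-fold, or 0.40 on the log2 scale, above 99.4% of the measured genes. Crygf, a further gamma crystallin that mice use and humans carry as a pseudogene, had 293 on the array labelled KO and 225 on the wild-type array. On the log2 scale this was a difference of 0.38, also above 99.4% of them. Its probe set has a name ending in _x_at, which marks probes that may also bind transcripts of other genes, so Crygf cannot be read apart from its relatives with certainty. Crygs, the gamma crystallin of the outer lens cortex, went the other way, with 356 on the array labelled KO and 369 on the wild-type array, a log2 difference of -0.052.

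Other gamma crystallins that the array reads lay between these values. Crygb had an intensity of 560 on the array labelled KO and 483 on the wild-type array, a log2 difference of 0.21. Crygd had 332 on the array labelled KO and 301 on the wild-type array, a log2 difference of 0.14. The probe set annotated to Crygc and Crygb together, which neither gene can claim, had 623 on the array labelled KO and 634 on the wild-type array, a log2 difference of -0.027. This is smaller in size than the technical SD. A second probe set that names Cryga, together with the adjacent D630023F18Rik, was below the floor, with 33.1 on the array labelled KO and 31.8 on the wild-type array. All 4 genes of the A to F group with a probe set of their own read higher, from 0.14 to 0.40, and Cryge was not read by a probe set of its own. Along chromosome 1 the cluster runs Cryge, Crygd, Crygc, Crygb and Cryga, and Crygf lies apart from it with Pth2r and Map2 as its nearest coding neighbours. Map2 differed by 0.049. Crygn, gamma N, which is known from retina, was below the floor, with 59.7 on the array labelled KO and 58.6 on the wild-type array.

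**Figure D3:**
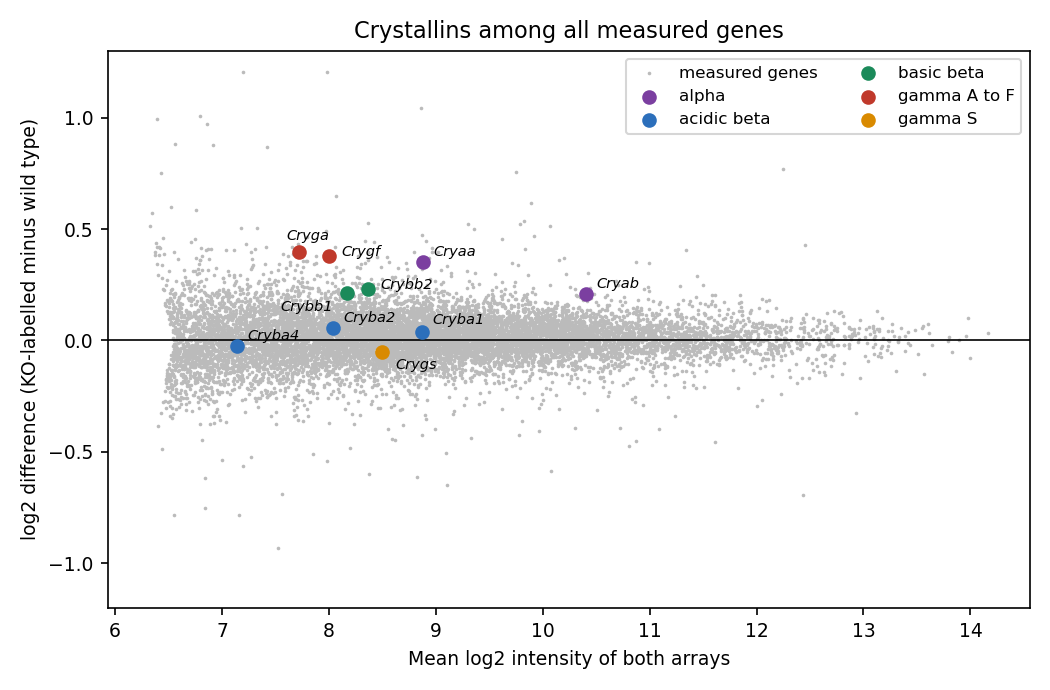
Log2 difference (array labelled KO minus wild-type array) against the mean log2 intensity of both arrays, for the 11568 measured genes (grey) and the 10 crystallins (coloured by class). Cryga, Crygf and Cryaa lie at the upper edge of the cloud, while Cryba1, Cryba2, Cryba4 and Crygs lie within its centre.

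In the range of mean level that the 10 genes span, 8445 genes were measured. Of these 1.57% were 1.2-fold or more higher on the array labelled KO, 0.876% were lower by as much, and their central 95% ran from -0.19 to 0.23. Cryaa, Cryga, Crygf and, by a small margin, Crybb2 lay above that range, and the other 6 lay inside it.

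Promoter sequence is shown for the 3 genes with the largest differences, for Crygs, which differed from the other gamma genes, and for the neighbours Crybb1 and Cryba4, whose values parted. Sequences are from RefSeq on build GRCm38.p6. A window was found for 9 of the 10 genes, and Cryab had none in the table used. Each sequence is the 120 bases that end just before the annotated start of transcription, 5' to 3' on the strand of the gene. Capitals mark matches on either strand to TGCTGA, a half-site of the Maf factors that drive lens crystallins, and to TATAAA or TATATA, forms of the TATA box. In Cryga and Crygf capitals also mark their longest shared run.
Cryaa (chr17:31677811-31677930, plus strand): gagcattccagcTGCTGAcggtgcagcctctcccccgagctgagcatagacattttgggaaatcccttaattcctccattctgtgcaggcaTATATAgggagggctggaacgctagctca
Cryga (chr1:65103364-65103483, minus strand): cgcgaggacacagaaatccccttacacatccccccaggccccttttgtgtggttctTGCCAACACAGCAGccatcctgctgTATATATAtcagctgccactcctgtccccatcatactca
Crygf (chr1:65926402-65926521, plus strand): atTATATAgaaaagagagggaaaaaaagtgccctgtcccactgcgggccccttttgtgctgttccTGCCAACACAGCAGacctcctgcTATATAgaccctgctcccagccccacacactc
Crygs (chr16:22811411-22811530, minus strand): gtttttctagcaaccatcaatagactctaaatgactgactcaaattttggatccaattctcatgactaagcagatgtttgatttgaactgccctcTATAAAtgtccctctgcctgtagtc
Crybb1 (chr5:112255700-112255819, plus strand): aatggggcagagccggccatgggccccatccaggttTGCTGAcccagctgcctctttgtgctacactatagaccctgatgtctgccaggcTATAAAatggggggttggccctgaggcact
Cryba4 (chr5:112252519-112252638, minus strand): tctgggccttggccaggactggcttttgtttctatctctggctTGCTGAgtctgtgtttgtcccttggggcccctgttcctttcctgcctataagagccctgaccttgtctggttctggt

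TATATA, a motif added after the sequences had been seen, was found in 8 of 15 windows of lens crystallin genes, against 2.51% of 32851 windows of all genes. It stood in 3 of the 9 windows of the genes described here, those of Cryaa, Cryga and Crygf, and also in those of Crygb and Crygd, which differed by 0.21 and 0.14, and of Crygc, Cryge and Crygn. In Cryaa its first base was at -29 from the start. In Cryga the overlapping matches began at -39 and -37, and in Crygf the match near the start began at -32. TATAAA was found in 3 of 15 windows, those of Cryba1, Crybb1 and Crygs, against 6.34% of all windows. TGCTGA was found in 5 of 15, those of Cryaa, Cryba1, Cryba4, Crybb1 and Crybb3, against 8.18%, and so in genes that read higher and in genes near 0 alike. The heat shock half-site pair GAANNTTC was in 0 of 15 and in 3.2% of all windows. The windows of Cryga and Crygf were 62.7% identical in a global alignment. The window of Crygf was closer to those of Crygd (84.7%) and Cryge (73.9%). The longest run shared by Cryga and Crygf, of 14 bases, was in those 2 windows alone of the 32851. Runs were searched for this pair alone, which was picked for its large differences, so other pairs may share longer ones. Over 15 pairs of gamma A to F genes the median identity was 62.7%, beside 48.6% over the other 90 crystallin pairs. These matches describe the letters of the windows, and their part in the differences was not tested.

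Genes called crystallins for their use in the lenses of other animals, or for a shared domain, were read beside the 10. Crym, mu-crystallin, a ketimine reductase that binds thyroid hormone, had an intensity of 2981 on the array labelled KO and 2249 on the wild-type array. This was 1.33-fold, a log2 difference of 0.41. Cryz, zeta-crystallin, a quinone oxidoreductase, differed by 0.13 and 0.036 in its 2 probe sets. Cryzl1, a relative of Cryz, read lower with each of 4 probe sets, with log2 differences between -0.17 and -0.019. Cryl1, a gulonate dehydrogenase known as lambda-crystallin, differed by 0.080 in its brightest probe set, by -0.055 in the other set above the floor, and by 0.061 and -0.36 in the sets below it. Crybg3, which carries the beta and gamma crystallin fold in a large protein outside the lens, differed by -0.037, while Crybg1 and Crybg2 were below the floor.

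The defining markers of lens fibres other than crystallins were mostly below the floor. Of the 10 markers of lens fibres and their membranes, 7 had a probe set of their own, and 6 of these were below the floor on both arrays: Mip, Lim2, Bfsp1, Gja3, Grifin and Dnase2b. Mip, the water channel of lens fibre membranes, had an intensity of 30.4 on the array labelled KO and 26.7 on the wild-type array. Bfsp2, a subunit of the beaded filament of lens fibres, had 93.2 on the array labelled KO and 101 on the wild-type array. Its log2 difference was -0.11. It was the 1 marker that counted as measured, and it reached the floor on the wild-type array alone. Its direction is therefore tied to the floor. The summed intensity of the 7 markers was 358 on the array labelled KO and 366 on the wild-type array, 4 of the 7 read higher and 3 lower, and 0 were at intensity 0. As 6 of the 7 were below the floor, neither this sum nor these directions measure the amount of lens RNA. The 2 probe sets of Mip differed by 0.19 and 0.42 and the 2 of Gja3 by -0.23 and 0.43, all below the floor. The summed intensity of the 10 crystallins was 4434 on the array labelled KO and 3894 on the wild-type array.

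In the wider list of lens structural genes, 7 of 16 with a probe set were measured. Of these 4 read higher and 3 lower, with 0 past 1.2-fold on either side and a median log2 difference of 0.080, or -0.023 with the mean of the probe sets of a gene. The higher ones, Cdh2 (0.19), an adhesion protein, Fabp5 (0.18), a fatty acid carrier, Vim (0.16), an intermediate filament, and Cryl1, whose measured probe sets disagree in sign, are also made outside the lens. Among 10 measured transcription factors of lens and crystallin genes, 7 read higher, 2 lower and 1 the same, 0 passed 1.2-fold, and the median was 0.043. Maf, which drives crystallin genes in the lens, had an intensity of 484 on the array labelled KO and 422 on the wild-type array, a log2 difference of 0.20, or 0.072 with the mean of its probe sets. Prox1, a factor of lens fibres and of retinal horizontal cells, was higher in all 3 of its probe sets, by 0.17 to 0.40. Sox2 differed by 0.18 and Pax6, which acts upstream in eye development, by -0.021.

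The alpha crystallins belong to the small heat shock proteins. Of 8 genes listed beside them by their Hspb names 4 were measured, with a median of -0.17. On the array labelled KO 1 of these, Hspb11, was higher, by 0.042, and 3 were lower. Hspb8, a partner of the co-chaperone Bag3, had an intensity of 185 on the array labelled KO and 237 on the wild-type array, a log2 difference of -0.36, with its 3 probe sets from -0.36 to -0.067. Hspb6 differed by -0.21 and Hspb1 by -0.14. Hspb2, which lies next to Cryab on chromosome 9, was below the floor, with 89.8 on the array labelled KO and 92.5 on the wild-type array. Of 17 other measured chaperones 6 read higher and 11 lower, 0 passed 1.2-fold, and the median was -0.027. Hspa1b, a heat-inducible Hsp70, differed by 0.12 in its brightest probe set, and Hspa4 by -0.17. The probe sets of both genes disagreed in sign, from -0.0063 to 0.18 for Hspa1b and from -0.17 to 0.078 for Hspa4.

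**Figure D4:**
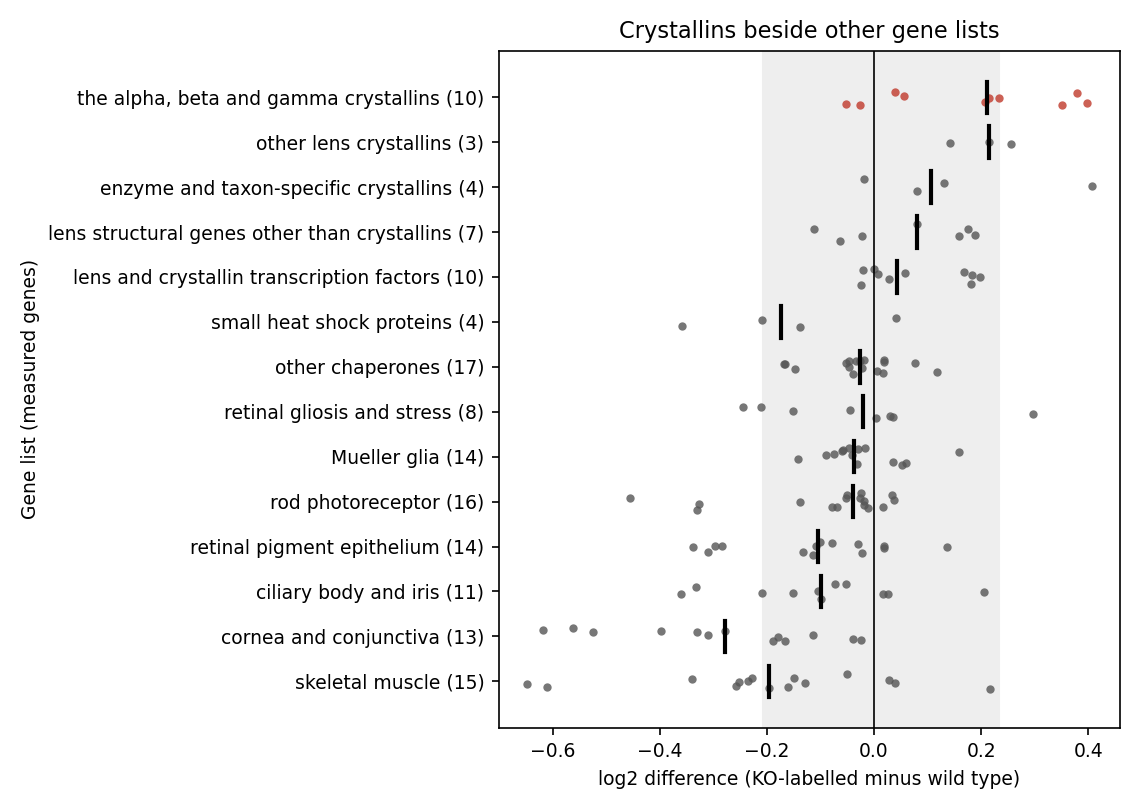
Log2 differences (array labelled KO minus wild-type array) of the measured genes of each list, 1 point a gene, with the list median as a bar and the central 95% of all measured genes in grey. The crystallins lie mostly to the right of 0 with a median of 0.21, while lists of the cornea (-0.28), skeletal muscle (-0.20) and pigment epithelium (-0.11) lie to the left.

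Lists of other tissues, both those that border the eye cup and those within it, read mostly lower on the array labelled KO, where 1.17% of all measured genes were at least 1.2-fold lower. All 13 measured genes of the cornea and conjunctiva list read lower on the array labelled KO, 7 of them at least 1.2-fold, with a median of -0.28. The 4 defining cornea markers, Krt12, Krt5, Krt14 and Aldh3a1, had a summed intensity of 656 on the array labelled KO and 846 on the wild-type array. Aldh3a1, 1 of the 7, had 92.7 on the array labelled KO and 142 on the wild-type array. It reached the floor on the wild-type array alone, so its direction is tied to the floor. Skeletal muscle genes read lower in 12 of 15, 3 of them at least 1.2-fold, with a median of -0.20 and a summed intensity of 5896 on the array labelled KO and 6715 on the wild-type array. Of the ciliary body and iris list 8 of 11 read lower, 2 of them at least 1.2-fold, with a median of -0.098. Within the eye cup, pigment epithelium genes read lower in 11 of 14, 4 of them at least 1.2-fold, with a median of -0.11. Rod genes read lower in 13 of 16, 3 of them at least 1.2-fold, with a median of -0.039, which is smaller in size than the technical SD. The 3 measured Y-linked genes were higher, with a median of 0.88, and Xist differed by -0.70. The brightest sets of Uty and Kdm5d reached the floor on the array labelled KO alone, so their direction is tied to the floor. Eif2s3y reached it on both arrays and differed by 0.65. Over all probe sets, Uty ran from 0.45 to 1.25, Kdm5d from -0.18 to 0.88 and Eif2s3y from 0.20 to 0.65. The part of dissection or of sex make-up in the crystallin values was not tested, and with 1 pool per genotype neither can be told apart from genotype.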

How the data were processed

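Total RNA of each eye cup pool was labelled and hybridised to 1 Affymetrix Mouse 430 2.0 array. The deposited values are intensities on a linear scale for 45101 probe sets. Partek 6.6 and RMA are named, per the submitters' processing notes, with no settings. RMA equalises array distributions and shrinks differences of dim probe sets. Scanner files and scan dates were not used here.

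Gene symbols came from the platform annotation: 34958 probe sets had 1 symbol, 932 several and 9211 none. The Entrez identifiers of all 10 genes matched RefSeq. Log2 differences are the array labelled KO minus wild type. The brightest probe set stood for a gene. The members and gene lists were chosen with earlier results of these data known. The text names the 10 genes, other genes called crystallins and the defining tissue markers. Examples from a list were drawn from its first 4 measured genes and the 4 with the largest absolute difference, and not all of these are named. Hspb2 and Gfap, both below the floor, and chromosomal neighbours were named outside this rule, after their values were seen. Sizes of 1.2-fold, 1.3-fold and 1.5-fold, other floors, marked probe set names, the mean of probe sets and a loess trend (span 0.3) were tried. Neighbouring genes are from RefSeq order. No protein sequences were used here. The steps were tested on simulated data and used Biopython 1.88, statsmodels 0.14.6, pandas 2.3.3 and numpy 2.4.6 under Python 3.11.15.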

Additional observations from a re-analysis of the deposited data

How the results depend on the processing

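No paired analysis was possible because only 1 array was run for each genotype. The 3 crystallin genes that were at least 1.2-fold higher became 0 at 1.5-fold, and the same held for the 3 probe sets. Without probe sets whose names end in _s_at, _x_at or _a_at, 7 genes remained to be read, 1 of them past 1.2-fold (Cryga), and the median log2 difference was 0.056 over genes and over probe sets, because Cryaa, Crygf and both brighter sets of Cryab are left out. Without those ending in _s_at or _x_at alone, chosen after seeing the data, 2 of 9 genes passed and the median was 0.21. Alternative values numbered 58, for the crystallin counts and medians and for the median of Crybg3 and its relatives, which share a domain. Of these, 52 stayed within 1.5 times the count or 1 technical SD of the median, and 6, those just given, did not. All values of Crybg3 and its relatives were among those that stayed. Some values could not have moved, as a count of 0 lower cannot rise at a larger fold size. Removing the floor could not change the gene values of the 10 crystallins, all already above it. The median of the list of Hspb genes was -0.084 with no floor, and that of the cornea list -0.19 with the mean of probe sets.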

Other observations

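Intermediate filament and stress genes, which are often read beside alpha crystallins in retina, did not show a common direction. Vim was higher in all 3 of its probe sets, by 0.16 to 0.21, whereas Gfap, the filament of reactive glia, was below the floor on both arrays, with an intensity of 77.6 on the array labelled KO and 74.0 on the wild-type array. Of the gliosis and stress list 8 of 16 genes with a probe set were measured, 4 higher and 4 lower, with a median of -0.021. Cd44 differed by 0.30 in its brightest probe set, while its 4 sets, 2 of them above the floor, ran from -0.047 to 0.30. The metallothionein genes Mt1 and Mt2 differed by -0.21 and -0.24. Of 14 Mueller glia genes 4 read higher and 10 lower, with a median of -0.037.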
